A study of Mus musculus with 8 samples.

Results

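Imprinted genes are expressed from the copy inherited from 1 parent, and 45 of them were followed in pools of mouse 2-cell embryos that were wild-type or lacked Gadd45a and Gadd45b. The 45 genes were a list of well-known imprinted genes, matched by symbol. No measured level or change was the rule for the list, but it was chosen with earlier results of these data known. Of the 37310 gene identifiers counted, 41 matched a listed gene. Snrpn, Kcnq1ot1, Rian and Mirg were not matched by symbol or synonym and were not analysed here. After a filter on low counts, 27 of the 41 matched genes were tested.

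Wild-type pools came from C57BL/6N embryos, and double-knockout (DKO) pools from embryos deficient for both Gadd45a and Gadd45b, labelled with the same strain and bred by intercrossing 2 knockout lines. Mothers were superovulated, mated naturally, 3 to 4 weeks old and of the genotype named, and embryos were collected 20 h after the vaginal plug. Each genotype had 4 pools, every pool held 23 to 35 embryos of 1 litter, and RNA with a polyA tail was read. Because the mothers were knockout too, loss of the maternal product and of the embryo's own product could not be told apart. The counts do not separate parental alleles, so "maternally" and "paternally expressed" below are textbook labels from other tissues and stages, not measurements. Since each library holds whole embryos, fewer cells of a kind and less RNA per cell cannot be told apart either.

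At most imprinted loci, DNA methylation laid down in 1 germline marks a control region, and the mark survives the wave of demethylation that follows fertilization. The zinc-finger protein ZFP57 and its partner TRIM28 hold it by binding a methylated TGCCGC core, and DPPA3 (also called STELLA) shields the oocyte-derived genome from oxidation by TET3. A smaller group, here Sfmbt2, Gab1, Slc38a4 and Smoc1, is silenced on the maternal copy by the histone mark H3K27me3 carried over from the oocyte. GADD45 proteins have been linked to active DNA demethylation. At the 2-cell stage much RNA is still the oocyte's own, so a paternally expressed gene can be present as RNA inherited from the mother.

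The following stretches of promoter sequence are shown because the genes beside them recur in the results. They come from RefSeq on GRCm38.p6, while the counts rest on mm9, and a RefSeq window of 300 bases, 250 of them before the start, was found for 38 of the 45 genes. The first stretch, chr7:6730420-6730582 on the plus strand, is the 163 bases between the start of Peg3, which is transcribed to the left, and that of Usp29, which is transcribed to the right. Capitals mark its 5 CpG pairs, the sites at which DNA is methylated.
Peg3-Usp29: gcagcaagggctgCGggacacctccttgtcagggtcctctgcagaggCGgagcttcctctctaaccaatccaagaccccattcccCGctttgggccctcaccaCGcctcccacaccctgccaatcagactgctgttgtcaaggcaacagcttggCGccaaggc
The next pair are the 250 bases before a start of Mest (chr6:30737800-30738049, plus strand) and before that of Plagl1 (chr10:13090582-13090831, plus strand). For Mest a window with the most matches to the TGCCGC core was chosen, and another of its windows, from chr6:30733256, held 0. Capitals there mark matches to the TGCCGC core on either strand, which reads GCGGCA on the other strand.
Mest: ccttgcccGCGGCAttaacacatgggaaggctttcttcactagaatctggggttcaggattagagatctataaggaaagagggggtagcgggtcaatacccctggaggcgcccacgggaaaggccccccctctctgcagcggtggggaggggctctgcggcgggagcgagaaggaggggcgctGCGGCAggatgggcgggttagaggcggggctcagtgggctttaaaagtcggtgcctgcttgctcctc
Plagl1: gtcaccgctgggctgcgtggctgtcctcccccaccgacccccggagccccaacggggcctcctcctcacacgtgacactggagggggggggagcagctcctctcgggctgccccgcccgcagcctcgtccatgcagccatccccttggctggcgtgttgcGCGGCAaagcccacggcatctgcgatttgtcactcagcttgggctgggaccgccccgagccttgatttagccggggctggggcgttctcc
The core was present in 12 of 59 windows of the imprinted genes (20.3%) and in 11.6% of all 32851 promoter windows. The windows of imprinted genes also held more CpG pairs, with a median of 14 against 7. Among the tested genes whose windows held the core were Mest, Plagl1, Nnat, Igf2, Zim1, Grb10, Commd1 and Meg3. A match describes the letters only, and no other motif was searched.

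Each library held 21329736 to 23919114 counts. Gadd45b was at 39.3, 43.5, 62.3 and 36.1 CPM (counts scaled to library size with TMM factors, per 1000000) in wild-type replicates 1 to 4 and at 0.179, 0.615, 0.0442 and 0.267 in DKO replicates 1 to 4, a log2 fold change of −7.33 ± 0.42 (SE, adjusted p by edgeR = 5.63e-07). Gadd45a was at 20.8, 15.7, 22.4 and 20.9 CPM in wild-type and 10.6, 10.8, 7.21 and 8.94 in DKO, a log2 fold change of −1.09 ± 0.22 (SE, adjusted p by edgeR = 0.303, by DESeq2 0.000794). Which part of each gene is deleted is not given in the labels, so the remaining Gadd45a reads check nothing. DKO replicate 1 stood apart, with a limma-voom quality weight of 0.365 against 0.786 to 2.08 in the other libraries. Its summed level of 8 oocyte markers was 3459 CPM, where the other 7 libraries had 1538 to 2312 CPM. Oosp1 made up 2077 CPM of it, and Oosp1, Bmp15, Gdf9 and Mos were highest in that pool, while Zp3 was lowest there (116 CPM) and Zp1, Zp2 and Oas1d lay within the range of the other pools. The 7 matched markers of the 2-cell embryo summed to 990.4 to 1453 CPM in all 8 libraries. Of 12 cumulus and granulosa markers, 4 were at 0 in every library and the sum was 8.87 to 14.5 CPM. Among oviduct markers Ovgp1 was at 57.4 CPM in wild-type replicate 1 and 3.22 to 16.5 CPM in the other pools, and Krt18 at 6.04 CPM against 0.801 to 2.11. Epcam, Krt8 and Pax8 were also highest in wild-type replicate 1, while Cdh1 was lowest there (5.79 CPM against 6.75 to 18.5) and Foxj1 was at 0. Blood markers summed to 96.0 CPM in DKO replicate 4 and 75.25 CPM in wild-type replicate 1, and to at most 6.66 CPM in the other pools.

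The genes that were present covered a wide range, and maternally expressed genes of the Kcnq1 domain led it. Levels between genes were compared as CPM per kb of exon. In wild-type pools Phlda2, which limits growth of the placenta, was highest at a mean of 118 CPM per kb. Tssc4, a splicing-related protein of the same domain, followed at 11.6 CPM per kb, and the ubiquitin ligase gene Ube3a, imprinted in neurons, was at 8.92. Usp29, a ubiquitin protease relative, was the highest paternally expressed gene at 7.04 CPM per kb. The cyclin-dependent kinase inhibitor gene Cdkn1c was at 6.85, the growth-linked gene Mest at 5.61 and Impact, an inhibitor of the kinase GCN2, at 4.12. The lowest tested genes were Igf2, the fetal growth factor, at 0.0943 CPM per kb and Rasgrf1, a RAS exchange factor, at 0.0515.

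**Figure D1:**
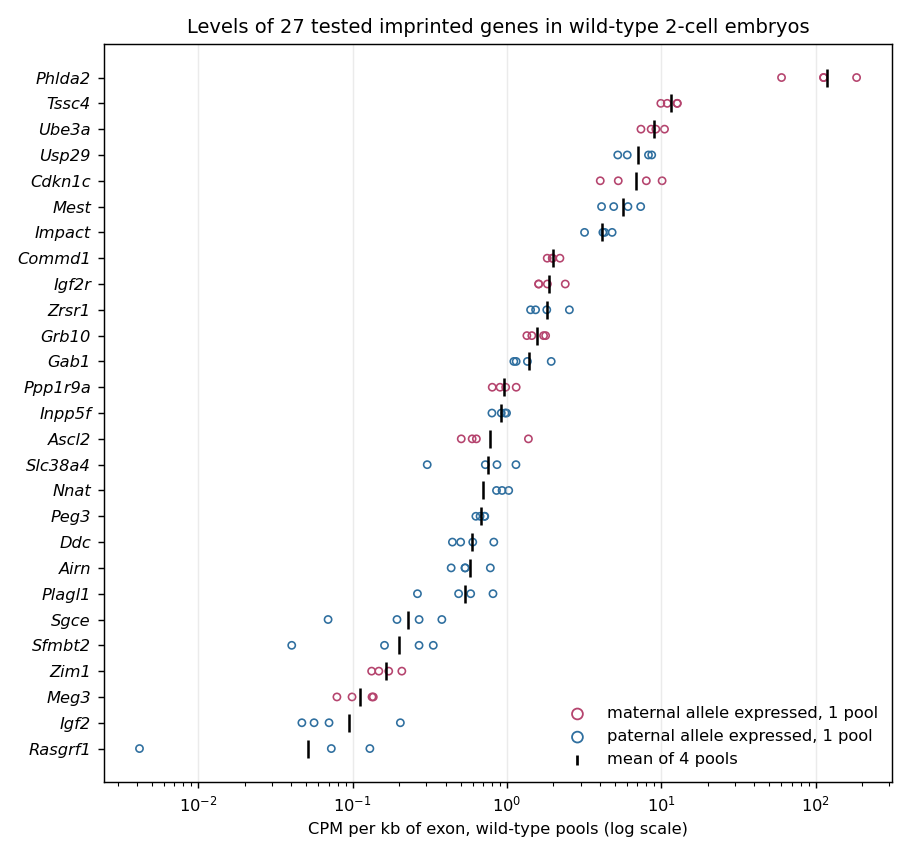
Mean exon-length-scaled level (CPM per kb of exon, log axis) of the 27 tested imprinted genes in the 4 wild-type pools, with circles for single pools coloured by the allele usually expressed and a bar for the mean; a pool at 0 (Nnat and Rasgrf1 in wild-type replicate 1) has no circle. Phlda2 lies furthest right at 118 CPM per kb and Rasgrf1 furthest left at 0.0515.

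Many imprinted genes known from the fetus and placenta gave few or no reads. Peg12 and Mkrn3 had 0 counts among 180196760, which allows up to 0.0166 CPM (3 counts over all libraries; floors cover counting error only, since reads are not independent molecules). Over all 8 libraries Calcr had 2 counts, Magel2 3, Slc22a18 10, H19 11, Dlk1 20 and Ndn 21. Smoc1 had 44 counts, Peg10 48, Gnas 61, Nap1l5 67, Cd81 70 and Dcn 71. These 14 genes were too low to test, and both genotypes were low. Gnas, which encodes a stimulatory G-protein subunit and several other transcripts, gave 28 wild-type and 33 DKO counts, the latter 11, 11, 1 and 10 in replicates 1 to 4. Its exons share 1469 bases with Gm20721 and 988 bases with Nespas on the opposite strand. Gm20721 had 0 counts over all libraries and Nespas 217. The sources used here do not say how reads over such overlaps were counted, which leaves the level of Gnas uncertain. Of the 27 tested genes 13 also overlap exons of another gene, among them Usp29 (2582 bases, with Zim3), Ube3a (1803 bases, with Snhg14), Cdkn1c (625 bases, with Gm44732) and Tssc4 (220 bases, with Trpm5), all on the opposite strand. Zim3, Snhg14 and Gm44732 were not among the genes counted, and Trpm5 had 4 counts over all libraries. Peg12, Ndn, Magel2 and Mkrn3 of the Snrpn-Ube3a domain stood among the untested, while Ube3a of that domain was at 184 ± 26.7 CPM in wild-type (SD, n = 4).

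When DKO was compared with wild-type, none of the 27 tested imprinted genes passed the adjusted threshold of 0.05. By edgeR's quasi-likelihood test adjusted over all 14970 genes, 0 of 27 were called, where 0.0267% of all genes tested were called. DESeq2 and limma-voom also called 0 of 27, and the lowest adjusted p of any imprinted gene in 17 alternative fits was 0.255. An unadjusted p under 0.05 was reached by 4 of 27 (14.8%), beside 10.2% of all genes tested. They were 2 higher in DKO (Grb10, Inpp5f), beside 5.79% of all genes, and 2 lower (Usp29, Sfmbt2), beside 4.44%. That count was also 4 by DESeq2, 1 by limma-voom with quality weights, and 2 without wild-type replicate 4. Among all genes the unadjusted shares were 11.9% by DESeq2 and 11.1% by limma-voom. Without DKO replicate 1 the count was 2 of 30 (Usp29, Sfmbt2), beside 5.71% of all genes. In 2 of 27 genes (7.41%) the DKO and wild-type pools did not overlap, beside 5.34% of all genes tested. Grb10 was the 1 higher in DKO, beside 2.79%, and Commd1 the 1 lower, beside 2.55%. With 27 genes, these shares stand on counts too small to set the imprinted genes apart from the background.

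Neither allele class leaned to 1 side. Of 11 tested maternally expressed genes, 5 had a positive and 6 a negative log2 fold change (DKO minus wild-type), with a median of −0.01. Of 16 paternally expressed genes, 8 were positive and 8 negative, with a median of −0.02. All genes tested had a median of 0.01. The paternally expressed genes were spread more widely, with a median absolute log2 fold change of 0.50 against 0.18 in the maternally expressed and 0.27 in all genes tested. Their fitted errors were wider too, with a median SE of 0.38 against 0.25. The SEs ran from 0.18 to 1.14 over the 27 genes. With 4 pools per genotype, a change of several SEs could still miss the adjusted threshold. Gadd45a did so at −1.09 ± 0.22 (SE, adjusted p by edgeR = 0.303). A gene that was not called is therefore not shown to be unchanged.

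**Figure D2:**
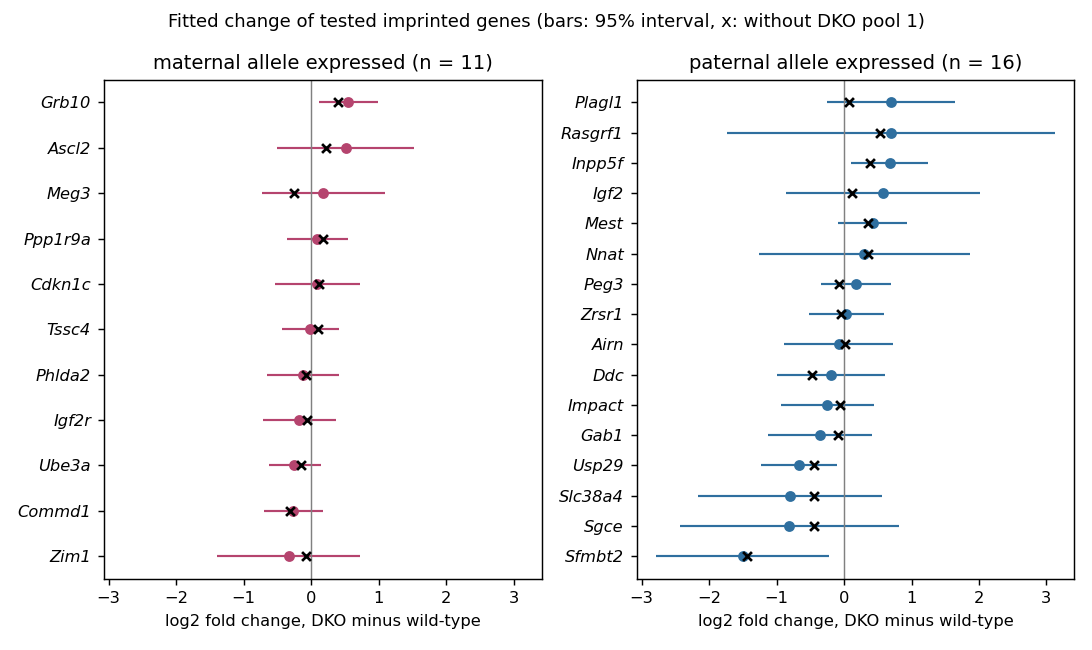
Fitted log2 fold change (DKO minus wild-type, x axis) of each tested imprinted gene with its 95% interval, in 2 panels by the allele usually expressed, and crosses for the value without DKO replicate 1. Points lie on both sides of 0 in both panels, and the fold change of Plagl1 falls from 0.70 to 0.08 without that pool.

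Among maternally expressed genes, Grb10 and Commd1 were those whose pools did not overlap, and neither passed the adjusted test. Grb10, an adaptor that dampens insulin receptor signalling, was at 13.2, 12.2, 15.7 and 16.2 CPM in wild-type replicates 1 to 4 and at 27.05, 19.1, 17.7 and 20.2 CPM in DKO replicates 1 to 4. All 4 DKO pools were above the highest wild-type pool, and DKO replicate 1 was the highest. Its log2 fold change was 0.55 ± 0.21 (SE, unadjusted p by edgeR = 0.017, adjusted p = 0.469). Over 17 alternatives its adjusted p was 0.255 to 0.864, and without DKO replicate 1 the fold change was 0.40 (unadjusted p by edgeR = 0.0564). Ddc, the neighbour of Grb10 that is paternally expressed in some tissues and encodes a decarboxylase, had a fitted log2 change of −0.20 ± 0.37 (SE), and −0.47 without DKO replicate 1.

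Commd1, a protein of copper handling and endosomal sorting, was at 13.1, 11.7, 11.7 and 10.8 CPM in wild-type and 10.5, 10.2, 8.98 and 9.66 in DKO. The groups were apart by little, since the lowest wild-type pool had 10.8 CPM and the highest DKO pool 10.5. With library size alone, without TMM factors, they overlapped. DKO replicate 1 had 235 counts in a library of 21329736 and wild-type replicate 4 had 242 in 23919114. The fitted log2 change was −0.27 ± 0.20 (SE, adjusted p by edgeR = 0.623, range over alternatives 0.541 to 0.899). Zrsr1, an intronless splicing-factor relative that lies within Commd1 and is paternally expressed, was at 11.4, 6.39, 8.13 and 6.88 CPM in wild-type and 9.79, 9.40, 8.36 and 6.05 in DKO. Its groups overlapped, although the lowest pool was DKO and the highest wild-type, and the fitted log2 change was 0.03 ± 0.26 (SE, adjusted p by edgeR = 0.97). The pair share 412 exon bases on opposite strands, and without strand their shared reads cannot be told apart.

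The most abundant maternally expressed genes overlapped between genotypes. Phlda2 was at 67.4, 126, 207 and 127 CPM in wild-type and 109, 141, 135 and 99.7 in DKO, so the wild-type pools held both the lowest and the highest value. Its log2 fold change was −0.12 (95% interval −0.66 to 0.42, adjusted p by edgeR = 0.874), and 0.18 without wild-type replicate 3. Cdkn1c, a neighbour of Phlda2, was at 8.20, 20.6, 16.3 and 10.7 CPM in wild-type and 13.7, 10.4, 20.5 and 14.9 in DKO. Both genes were lowest in wild-type replicate 1, the pool with high blood markers, Ovgp1 and Krt18 and the lowest Cdh1, whose part in these values was not tested. Cdkn1c had a log2 fold change of 0.09 (95% interval −0.53 to 0.72, adjusted p by edgeR = 0.925).

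Tssc4 of the Kcnq1 domain was at 23.4, 23.4, 20.2 and 18.3 CPM in wild-type and 16.1, 19.5, 24.6 and 24.5 in DKO. Its log2 fold change was −0.01 (95% interval −0.43 to 0.42, adjusted p by edgeR = 0.992). Ascl2, a trophoblast transcription factor of the domain, was low at 1.26 ± 0.654 CPM in wild-type pools and 1.81 ± 0.688 CPM in DKO pools (mean ± SD, n = 4 each). Ube3a was at 177, 190, 152 and 217 CPM in wild-type and 120.1, 195, 177 and 129 in DKO. DKO replicates 1 and 4 were lowest and the other 2 lay within the wild-type range. For Ube3a the log2 fold change was −0.25 (95% interval −0.63 to 0.14, adjusted p by edgeR = 0.606). The remaining maternally expressed genes gave log2 fold changes of −0.18 for Igf2r, the receptor that clears IGF2, 0.09 for Ppp1r9a, an actin-binding protein, 0.18 for Meg3, a noncoding RNA, and −0.33 for the zinc-finger gene Zim1. Without DKO replicate 1 these became −0.06 for Igf2r, 0.17 for Ppp1r9a, −0.26 for Meg3 and −0.08 for Zim1.

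Among paternally expressed genes the lowest unadjusted p values belonged to Inpp5f, Usp29 and Sfmbt2, 1 of them higher and 2 lower in DKO. Inpp5f, a phosphoinositide phosphatase with an imprinted variant, was at 6.65, 8.09, 8.27 and 7.64 CPM in wild-type and 18.8, 8.26, 10.3 and 11.7 in DKO. DKO replicate 2 (8.26) and wild-type replicate 3 (8.27) touched, and the other DKO pools lay above. The fitted log2 change was 0.68 ± 0.26 (SE, unadjusted p by edgeR = 0.022, adjusted p = 0.469, range over alternatives 0.28 to 0.899) and 0.39 without DKO replicate 1. The counts cover the whole gene, so the imprinted variant could not be told from the others.

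Usp29 was at 149, 109, 94.4 and 157 CPM in wild-type and 37.4, 88.1, 109.5 and 85.6 in DKO. DKO replicate 1 was far below the rest and DKO replicate 3 lay within the wild-type range. The log2 fold change was −0.67 ± 0.27 (SE, unadjusted p by edgeR = 0.0241, adjusted p = 0.469, range over alternatives 0.274 to 0.835), and −0.44 without DKO replicate 1. Peg3, a zinc-finger gene that starts 163 bases away and runs in the other direction from the stretch printed above, showed another pattern. It was at 8.38, 8.92, 9.52 and 9.57 CPM in wild-type and 15.0, 8.785, 8.80 and 8.50 in DKO, so 7 pools lay close together and DKO replicate 1 was highest. Peg3 had a fitted log2 change of 0.18 ± 0.24 (SE, adjusted p by edgeR = 0.798), and −0.07 without DKO replicate 1.

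The pool that was lowest in Usp29 was therefore highest in Peg3, although both are paternally expressed from one control region. On the log2 scale the ratio of Usp29 to Peg3 CPM was 4.16, 3.61, 3.31 and 4.03 in wild-type replicates 1 to 4 and 1.32, 3.33, 3.64 and 3.33 in DKO replicates 1 to 4. This comparison was chosen after the values were seen and has no test. Zim1, the maternally expressed gene of the same domain, was also lowest in DKO replicate 1, at 0.447 CPM against 1.02 to 1.68 in the other pools. The same pool had the highest Oosp1, Bmp15, Gdf9 and Mos and the lowest Zp3, and their part in these values was not tested.

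**Figure D3:**
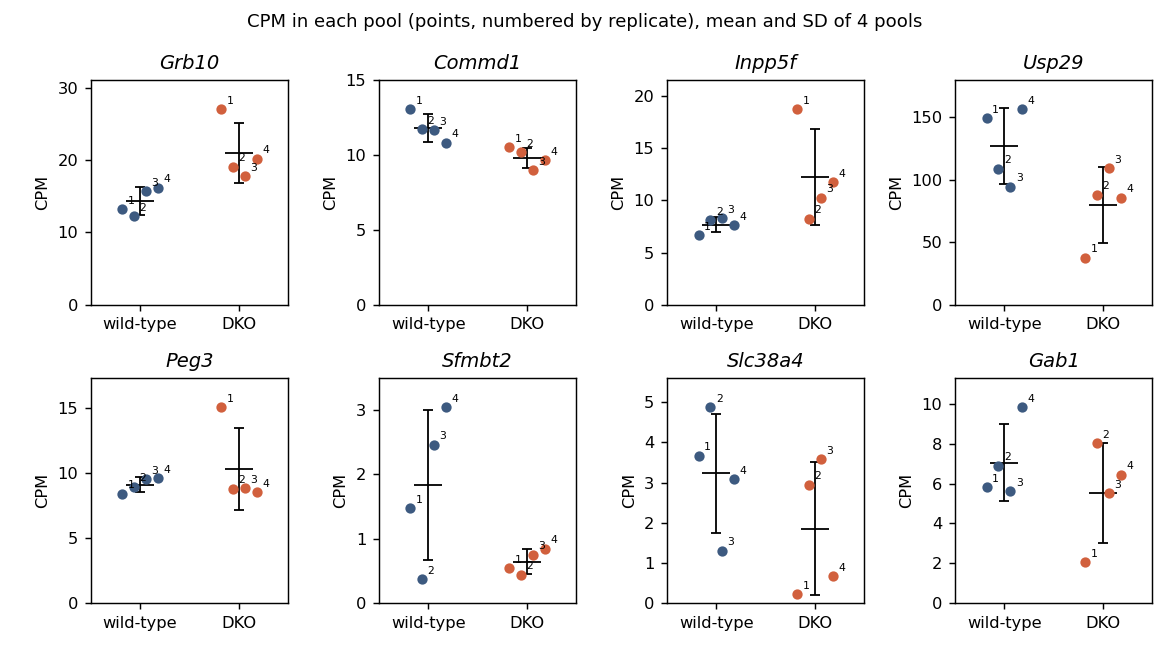
CPM in each pool (points numbered by replicate, y axes from 0) for 8 imprinted genes in wild-type and DKO embryos, with the mean and SD of 4 pools. In Grb10 the DKO pools lie above all wild-type pools and in Commd1 below them, while DKO replicate 1 sets apart Usp29, Peg3, Inpp5f and Gab1.

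Of the 4 genes silenced on the maternal copy by H3K27me3, 3 were tested. Sfmbt2, Gab1 and Slc38a4 had negative log2 fold changes, as did 7308 of the 14970 genes tested, and 0 passed the adjusted test. Sfmbt2, a Polycomb-group gene, was at 1.47, 0.368, 2.46 and 3.04 CPM in wild-type and 0.536, 0.439, 0.752 and 0.845 in DKO. Wild-type replicate 2 was the lowest of all pools and the other 3 wild-type pools lay above every DKO pool. Its log2 fold change of −1.50 ± 0.60 (SE, unadjusted p by edgeR = 0.0244, adjusted p = 0.469, range over alternatives 0.286 to 0.862) was the lowest among the 27 genes, and it was −0.62 by limma-voom with quality weights (unadjusted p = 0.402). Counts behind it were 34, 8, 55 and 68 in wild-type and 12, 10, 17 and 19 in DKO.

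Gab1, a docking protein of receptor kinases, was at 5.83, 6.89, 5.63 and 9.83 CPM in wild-type and 2.06, 8.04, 5.53 and 6.45 in DKO. DKO replicate 1 alone was low, and without it the log2 fold change went from −0.35 ± 0.36 (SE, adjusted p by edgeR = 0.722) to −0.09. Slc38a4, an amino acid transporter, was at 3.67, 4.87, 1.30 and 3.08 CPM in wild-type and 0.224, 2.94, 3.58 and 0.667 in DKO, and the fitted log2 change was −0.80 ± 0.64 (SE, adjusted p by edgeR = 0.643), and −0.44 without DKO replicate 1. Smoc1, a secreted matrix protein, gave 19 wild-type and 25 DKO counts and was not tested. The 4 genes together summed to 11.0, 12.7, 9.65 and 15.96 CPM in wild-type and 3.04, 12.03, 10.1 and 7.965 in DKO. The median log2 fold change over the 3 tested genes was −0.80, and −0.44 without DKO replicate 1, against 0.01 and −0.01 over all genes tested. With 3 genes, these medians are the values of Slc38a4 alone.

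The other abundant paternally expressed genes did not separate the genotypes. Mest was at 29.0, 23.99, 19.4 and 16.2 CPM in wild-type and 33.8, 19.2, 27.3 and 38.7 in DKO. DKO replicates 1 and 4 were above every wild-type pool and the other 2 lay within the wild-type range. For Mest the log2 fold change was 0.43 (95% interval −0.09 to 0.94, adjusted p by edgeR = 0.529). Mest shares 912 exon bases with Copg2 on the opposite strand. Impact was at 22.1, 16.3, 21.5 and 24.6 CPM in wild-type and 9.79, 28.0, 23.97 and 9.17 in DKO, a log2 fold change of −0.25 (95% interval −0.94 to 0.44, adjusted p by edgeR = 0.78). It was −0.06 without DKO replicate 1, −0.04 without DKO replicate 4 and −0.57 without DKO replicate 2.

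Impact was thus low in DKO replicates 1 and 4 and not in replicates 2 and 3. The same split was noticed, after the values were seen, in 2 further paternally expressed genes. Maternally expressed Ube3a (120.1 and 129 CPM against 195 and 177) and Phlda2 (109 and 99.7 against 141 and 135) had it too, so it was not particular to the paternal class. Paternally expressed Mest went the other way, at 33.8 and 38.7 CPM in DKO replicates 1 and 4 against 19.2 and 27.3 in replicates 2 and 3. How many of all genes share the split or its opposite was not counted. Slc38a4 was at 0.224 and 0.667 CPM in DKO replicates 1 and 4 against 2.94 and 3.58 in replicates 2 and 3. Sgce, a sarcoglycan that shares a domain with Peg10, was at 0.134 and 0.222 CPM in DKO replicates 1 and 4 against 2.94 and 2.21 in replicates 2 and 3. Wild-type replicates 1 to 4 had 4.02, 0.735, 2.86 and 2.06 CPM of Sgce, so wild-type replicate 2 was low as well. Sgce had a fitted log2 change of −0.81 ± 0.76 (SE, adjusted p by edgeR = 0.696), which was −0.44 without DKO replicate 1 and ranged from −1.50 to −0.08 over alternatives.

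Plagl1, a zinc-finger transcription factor, had the highest fold change among paternally expressed genes at 0.70 ± 0.44 (SE, adjusted p by edgeR = 0.564), and 0.08 without DKO replicate 1. That pool had 13.9 CPM, and the other 7 pools had 2.06 to 6.35 CPM. Rasgrf1 was at 0 CPM in wild-type replicate 1 and DKO replicate 4 and reached 2.17 CPM in DKO replicate 3, so its log2 fold change of 0.69 had an SE of 1.14. Nnat, a membrane proteolipid, was at 0 counts in wild-type replicate 1 and at 31 to 43 counts in the other 7 pools. Igf2 was at 0.539 ± 0.421 CPM in wild-type pools and 0.81 ± 0.466 CPM in DKO pools (mean ± SD, n = 4 each). Airn, the noncoding RNA antisense to Igf2r, was at 2.06 ± 0.529 CPM in wild-type pools and 1.94 ± 0.426 CPM in DKO pools (mean ± SD, n = 4 each).

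DKO replicate 1 was the lowest of the 8 pools for 9 of 27 imprinted genes (33.3%) and for 25.1% of all genes tested. It was the highest pool for 7 of 27 (25.9%) and for 27.1% of all genes tested. The median biological coefficient of variation, the fitted spread between pools beyond counting noise, was 0.324 for the imprinted genes and 0.273 for all genes tested. It was 0.258 for maternally and 0.366 for paternally expressed genes.

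**Figure D4:**
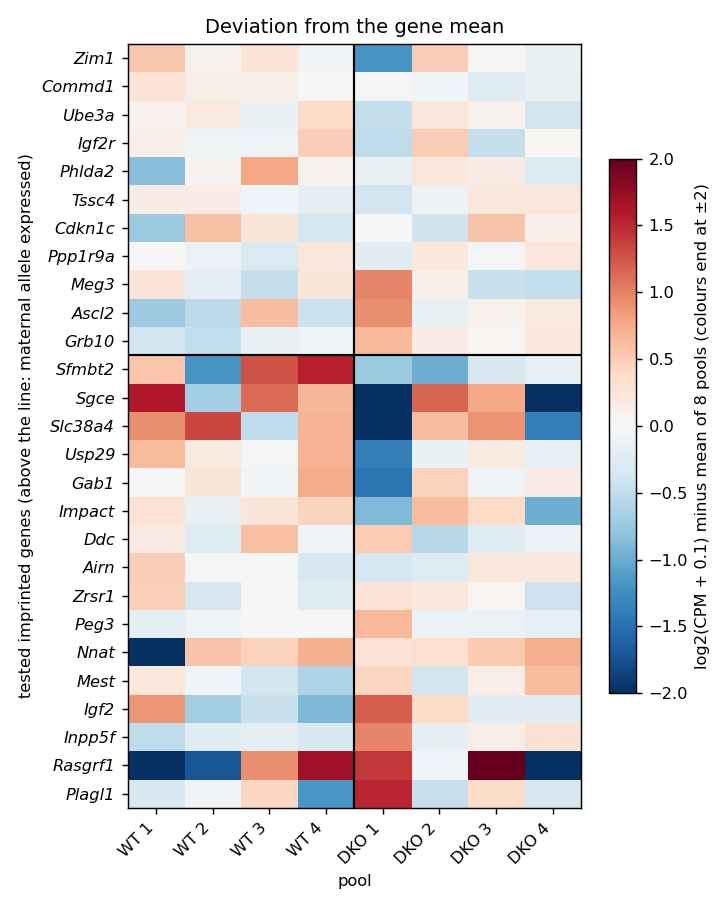
Deviation of each tested imprinted gene from its mean over 8 pools, as log2(CPM + 0.1), with wild-type pools left and DKO pools right of the vertical line and maternally expressed genes above the horizontal line. DKO replicate 1 holds dark blue cells (Sgce, Slc38a4) as well as red ones (Plagl1, Rasgrf1), and colours end at 2 on either side, so cells past that limit, such as Nnat in wild-type replicate 1 and Slc38a4 in DKO replicate 1, share the end colour.

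Genes that lay down, keep or erase imprints gave no adjusted call either. Of 31 such genes listed, 30 were tested, 20 with a positive log2 fold change, and 0 passed the adjusted test by edgeR or DESeq2. An unadjusted edgeR p under 0.05 was reached by 1 of the 30, beside 10.2% of all genes tested, of which 7662 of 14970 were positive. Tdg, with 12 counts, was not tested. Dppa3 was at 7796 ± 776 CPM in wild-type pools and 7953 ± 425 CPM in DKO pools (mean ± SD, n = 4 each), and its log2 fold change was 0.03 (95% interval −0.27 to 0.33). Zfp57 was at 316 ± 60.0 CPM in wild-type pools and 294 ± 37.1 CPM in DKO pools (mean ± SD, n = 4 each), and the log2 fold change was −0.10 (95% interval −0.45 to 0.25). For Trim28 the log2 fold change was 0.07 (95% interval −0.28 to 0.41), and for Dnmt1, the maintenance DNA methyltransferase, 0.05 (95% interval −0.36 to 0.45).

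Dnmt3l, the cofactor with which oocyte imprints are set, had the smallest p of this list. It was at 47.3, 41.6, 56.5 and 54.9 CPM in wild-type and 104, 61.2, 57.6 and 70.5 in DKO, so the pools did not overlap, by a small margin between DKO replicate 3 and wild-type replicate 3. The log2 fold change was 0.55 ± 0.20 (SE, unadjusted p by edgeR = 0.0143, adjusted p = 0.469), and 0.33 without DKO replicate 1 (unadjusted p by edgeR = 0.0566). Of the 30 tested genes of this list, 2 had all DKO pools above all wild-type pools, beside 2.79% of all genes tested, and 0 had them below. The second was Ezh2, with a log2 fold change of 0.21 ± 0.13 (SE, adjusted p by edgeR = 0.568). Uhrf1, which brings DNMT1 to replicated DNA, had a log2 fold change of 0.50 ± 0.23, Tet2 0.63 ± 0.31 and Tet3 0.62 ± 0.31 (SE, adjusted p by edgeR = 0.488, 0.489 and 0.489). Without DKO replicate 1, which had 84.0 CPM of Tet3 against 23.9 to 37.4 in the other pools, the value for Tet3 was 0.12. Dnmt3l and Ezh2, the 2 whose pools did not overlap, both lie on a chromosome with a deleted gene. Dnmt3l and Tet1 are on chromosome 10 with Gadd45b, and Ezh2, Tet3 and Dppa3 on chromosome 6 with Gadd45a. Their distances from the deleted genes were not measured here, and the part of position in their values was not tested.

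Imprinted genes outside the list of 45 were also examined. Of 17 tested maternally expressed genes, 11 were positive with a median log2 fold change of 0.07, and of 3 tested paternally expressed genes 1 was positive with a median of −0.14. By edgeR and DESeq2 0 of these passed the adjusted test, and 1 of 20 reached an unadjusted edgeR p under 0.05, beside 10.2% of all genes tested. That gene was Kcnq1, a potassium channel gene of the domain that also holds Phlda2 and Cdkn1c. It was at 0.734, 1.79, 0.983 and 1.39 CPM in wild-type and 3.93, 1.41, 2.61 and 3.34 in DKO, where DKO replicate 2 lay within the wild-type range. For Kcnq1 the log2 fold change was 1.2 ± 0.44 (SE, unadjusted p by edgeR = 0.0158, adjusted p = 0.469). It was 0.99 without DKO replicate 1, its highest pool (unadjusted p by edgeR = 0.0543). Blcap had a log2 fold change of 0.46, Mcts2 −0.25 and Zdbf2 −0.14 (adjusted p by edgeR = 0.523, 0.581 and 0.939).

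The part of position near the deleted genes in these values was not tested. Chromosome 6, which carries Gadd45a, and chromosome 10, which carries Gadd45b, held 4 tested genes of the list of 45: Mest, Sgce, Ppp1r9a and Plagl1. The nearest imprinted gene on the list was Nap1l5, a nucleosome assembly protein relative 8.13 Mb from Gadd45a on GRCm38, with 29 wild-type and 38 DKO counts. Dcn, a matrix proteoglycan 16.6 Mb from Gadd45b, gave 19 wild-type and 52 DKO counts, of which DKO replicate 2 held 30. Neither was tested. Mest lies 36.3 Mb from Gadd45a and Plagl1 67.9 Mb from Gadd45b. Without the genes on these chromosomes the median log2 fold change of the other 23 tested genes of that list was −0.08.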

How the data were processed

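RNA-seq libraries of 8 embryo pools were compared, 4 DKO and 4 wild-type, grouped by their labels. Each deposited table holds whole-number counts per Ensembl gene, not normalized. Tools named in the submitters' processing notes (per the labels) were STAR 2.5.2b, featureCounts 1.5.1 of Subread and DESeq2 1.18.1, with builds NCBIM37 and mm9. The sources used here do not say how strand and multi-mapping reads were treated. Of 37310 identifiers, 4690 matched no symbol and were kept. Exon lengths, overlaps and distances came from GENCODE M21 on GRCm38, promoter windows from RefSeq on GRCm38.p6.

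Counts were filtered with edgeR's filterByExpr, scaled by TMM and tested with edgeR 4.0.16 (robust quasi-likelihood test, R 4.3.3), DKO minus wild-type, with no covariate, Benjamini-Hochberg adjustment over 14970 genes and a threshold of 0.05. Each SE is the fold change over the square root of the F statistic, and 95% intervals use the fit's degrees of freedom. Alternatives were DESeq2 1.42.0, limma-voom (limma 3.58.1) with sample quality weights, other scalings and filters, a replicate block, log2 embryos per pool, and each library left out. The edgeR and DESeq2 scripts were tested on simulated data.

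Library depth of 21329736 to 23919114 counts makes 1 count worth 0.0442 CPM in DKO replicate 3. Genes given in full were those past the threshold, those whose pools did not overlap, the 5 highest by CPM per kb and the 3 with the smallest p in each allele class, Gnas, Gadd45a and Gadd45b; in the list of imprint keepers the 4 with the smallest p and Zfp57, Trim28, Dppa3, Dnmt1 and Tet3; in the lists of further imprinted genes the 2 with the smallest p. Other genes were named for completeness or after their values were seen. Imprinted genes and lists were chosen with earlier results of these data known. Markers of sperm summed to at most 2.37 CPM, of fibroblasts to at most 2.79, of oviduct to 177.8 to 323 and of later embryos to 76.2 to 96.3 CPM in any pool.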

Additional observations from a re-analysis of the deposited data

Results flagged for a closer look

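Gnas in DKO replicate 3 stood at 0.0442 CPM, which is 1 count, while the nearest of the other DKO pools was at 0.445 CPM. The gap was 0.895 of the range of the 4 DKO pools. It was 1 of 32 groups of 4 pools examined in this way, among which chance flags about 1 in 20.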

How the results depend on the processing

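In every one of the 17 alternative fits 0 imprinted genes passed the adjusted threshold. The number of all genes past it was 4 and became 47 with DESeq2, 7 with no filter and 1 at a mean of at least 10 CPM, and stayed at 4 with each library left out. The count of imprinted genes at an unadjusted p under 0.05 was 4 and became 1 with limma-voom quality weights, 2 without genes whose exons overlap another gene, and 2 to 4 with each library left out. The count whose pools do not overlap was 2 and became 1 with library size alone, at a mean of at least 10 CPM (fewer genes tested) or without overlapping genes. It became 3 with RLE scaling and with no filter (39 genes tested), and 2 to 4 with each library left out. This count was not computed under DESeq2 or limma-voom, and the replicate block and the embryo covariate do not change CPM. For the imprint keepers, 1 became 3 with DESeq2 and with library size alone, 2 with no filter and at a mean of at least 10 CPM, 4 with embryos per pool as covariate, and 0 to 3 with each library left out. The median of all imprinted genes (−0.01) became −0.15 without overlapping genes, that of maternally expressed genes (−0.01) −0.12 with the embryo covariate, and that of paternally expressed genes (−0.02) 0.23 with no filter and −0.23 without overlapping genes. With each library left out these medians ranged from −0.09 to 0.04, −0.10 to 0.03 and −0.13 to 0.10. Signs turned for Tssc4 (0.04 with limma-voom and with library size alone, 0.02 at a mean of at least 10 CPM, −0.09 to 0.10 with each library left out), Cdkn1c (−0.01 with the embryo covariate, −0.10 to 0.34), Phlda2 (−0.34 to 0.18) and Zrsr1 (−0.07 to 0.23). Over all alternatives signs also turned for Peg3 (−0.07 to 0.26), Meg3 (−0.26 to 0.36), Airn (−0.20 to 0.10), Nnat (−0.12 to 1.05) and Rasgrf1 (−0.17 to 1.67). The cause was not tested.

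Same-numbered pools did not deviate together (r across genes of 0.002, 0.017, 0.034 and 0.078), so the numbers do not pair them. With the replicate block 4 genes of all and 0 imprinted genes passed, 4 imprinted genes and 1 imprint keeper had an unadjusted p under 0.05, and the medians were −0.02, −0.02 and −0.01. Low counts limit the 14 untested genes and those near 1 CPM, such as Rasgrf1 and Sfmbt2.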
